A study of Rattus norvegicus and Mus musculus with 22 samples.

Results

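The comparison described here set rat INS-1 insulinoma cells given forskolin together with the acetyltransferase inhibitor A-485 against INS-1 cells given forskolin without the inhibitor. A gene entered when its deposited value reached 10 FPKM (fragments per kilobase of transcript, scaled to the number of reads in the library) in the higher of the 2 libraries, and 6838 of 17007 genes did. The untreated control library had no compound named in its labels, the forskolin library had 10 µM forskolin for 2 h, and the inhibitor library had 10 µM A-485 for 4 h with the same forskolin treatment for 2 h. Another library of the same experiment had 1 µM JQ1 for 4 h with forskolin, and its values are given beside the others only for named genes and lists. Each of these groups was 1 library, so no difference between them has a replicate check and none was tested. The 3 libraries were part of a series of 22 from islets, hepatocytes and pancreatic cell lines that concerns how CREB acts in brief and lasting cAMP responses. INS-1 is a long-cultured tumour line and not primary beta cells, and the labels do not say whether the libraries came from separate cultures. No vehicle and no library with A-485 but without forskolin is named in the labels used here, so values below control cannot be assigned to the inhibitor alone or to the combination.

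Forskolin activates adenylyl cyclase and raises cAMP, which frees protein kinase A to phosphorylate the transcription factor CREB. Phosphorylated CREB binds the related coactivators p300 and CBP, which acetylate histones, including lysine 27 of histone H3 at active enhancers and promoters. A-485 is a competitive inhibitor of the acetyl-CoA site of p300 and CBP. JQ1 acts elsewhere, by displacing BET proteins from acetylated lysines. In beta cells, cAMP signalling strengthens glucose-stimulated insulin secretion, and CREB supports genes of beta cell survival.

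Depth, estimated from the value of a single read in each column, was 4.08 M reads in control, 3.90 M with forskolin, 5.38 M with A-485 and forskolin and 3.90 M with JQ1 and forskolin. The libraries carried the marks of beta cells: insulin 1 (Ins1) stood at 56539.8, 74241 and 43572 FPKM in control, forskolin and A-485 with forskolin. Most markers of other cell types were low or listed at 0. Of 19 acinar markers 13 were listed at 0 in these 3 libraries, amylase, elastase and trypsin genes among them, and 2 passed the floor. The summed level of the acinar list was 26.1, 43.1 and 16.98 FPKM in control, forskolin and A-485 with forskolin. Of 12 leukocyte and hepatocyte markers 5 were listed at 0 in all 3, albumin (Alb) and the leukocyte gene Ptprc among them. Only 1 passed the floor, Serpina1, at 14.8, 16.4 and 11.04 FPKM in control, forskolin and A-485 with forskolin. Fgb was 4.10, 3.34 and 0.96 FPKM in the same order. Of 13 duct, endothelial and mesenchymal markers 5 were listed at 0 in all 3 and 2 passed the floor: Thy1, a surface protein of fibroblasts and neurons, at 123.9, 129.5 and 89.6 FPKM in control, forskolin and A-485 with forskolin, and Kdr, described below. Their part in the results was not tested. Crebbp, which encodes CBP, was 8.55, 11.8 and 12.7 FPKM in control, forskolin and A-485 with forskolin, and the gene for p300 was not analysed here. Creb1 lay under the floor at 3.62, 1.97 and 3.70 FPKM. An inhibitor of enzyme activity need not change these transcripts, so they do not check the treatment label.

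A second INS-1 table with 2 control and 2 forskolin libraries supplied the forskolin response used below. Its replicate 1 may not be separate evidence. Over 5500 genes with at least 100 reads, the forskolin to control log2 ratio of the inhibitor experiment correlated across genes with the replicate 1 difference at r = 0.911 and with the replicate 2 difference at r = 0.685, so replicate 1 may hold the same libraries. The main counts that rest on this table are therefore given with replicate 2 alone as well. The labels do not place its replicates in separate cultures, and its p-values measure only the spread between those libraries, which may be technical.

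Most transcripts stayed at their forskolin level when A-485 was present, and on the deposited scale those that moved far were mainly lower. Ratios are log2 of A-485 with forskolin over forskolin, with 1 FPKM added to each level. A gene was called lost at a log2 ratio of -1 or less, raised at 1 or more, and kept within 1.5-fold in either direction. By this size rule 662 of 6838 genes, or 9.68%, were lost, 4768 (69.7%) were kept and 264 (3.86%) were raised. A further 559 genes lay between kept and lost and 585 between kept and raised. The median log2 ratio was -0.03, with quartiles of -0.41 and 0.32. On the same scale 223 genes were at least 4-fold lower and 72 at least 8-fold lower, against 31 genes at least 4-fold higher and 3 at least 8-fold higher, of which Chchd2 and Polr2l were listed at 0 with forskolin. Fewer cells in the A-485 culture and less RNA per cell cannot be told apart in such data, because FPKM is relative to each library's total.

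The split depends on that scaling. The deposited FPKM summed to 711197 with forskolin and 578646 with A-485 and forskolin, and the lower Ins1 level given above is part of that gap. Of the genes lost or raised, 71.5% were lost as deposited (662 lost, 264 raised). With columns scaled to the same upper quartile this was 55.8% (544 lost, 431 raised), and with equal column totals 40.6% (464 lost, 678 raised). Equal totals moved the median log2 ratio of all genes by 0.31 and upper quartile scaling moved it by 0.15, and changes of that size or less have no direction independent of scaling.

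**Figure D1:**
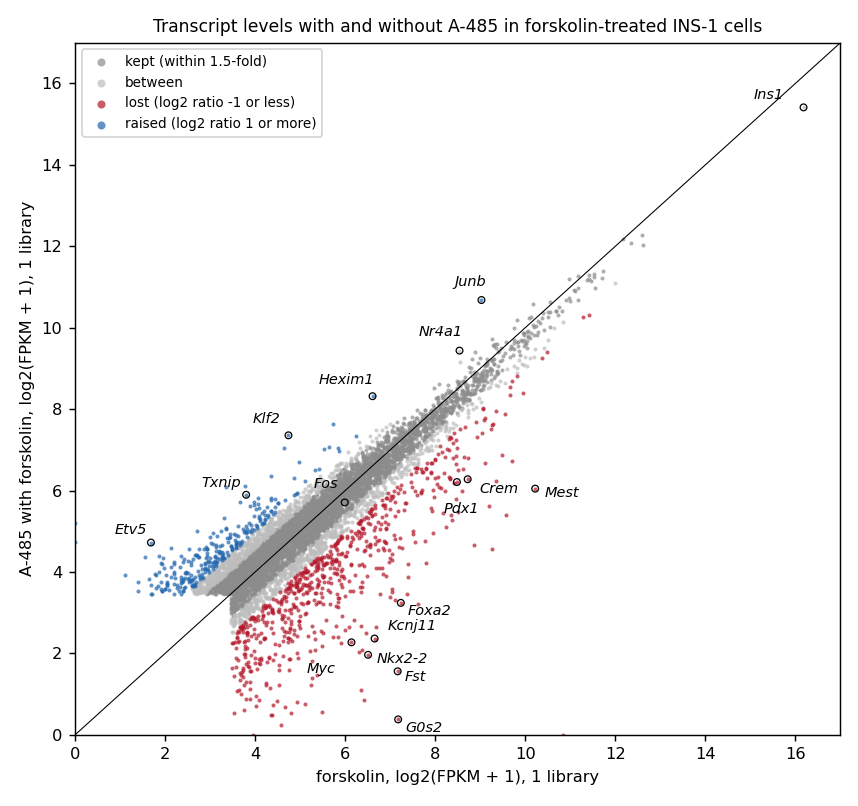
Each point is 1 of the 6838 genes, placed by its level with forskolin (x axis) and with A-485 and forskolin (y axis), both log2(FPKM + 1) in 1 library each, with the line of equal levels. The 662 lost genes lie well under the line across the whole range of levels, and the 264 raised genes lie above it mostly at low forskolin levels.

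The lost share was larger among highly expressed genes. The lost share was 7.41% of 1809 genes whose higher level was 10 to 20 FPKM, 8.96% of 2377 genes at 20 to 50, 10.8% of 2020 genes at 50 to 200 and 15.2% of 632 genes at or above 200 FPKM. The raised share ran the other way, from 6.91% in the lowest class through 4.54% and 1.44% to 0.316% in the highest. Lost transcripts had a median length of 2432 bases, against 1969 for kept, 2147 for raised and 2048 for all genes. Genes nearest a size limit were Hnrnpa1, lost at 272.5 FPKM with forskolin and 135.8 with A-485, and the methyltransferase gene Carm1, just short of lost at 43.1 and 21.1 FPKM. On the other side Dip2a was raised from 7.34 to 15.7 FPKM and Armc10 just missed at 8.71 and 18.4.

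The lowest ratios belonged to genes that were all but absent with A-485. G0s2, an inhibitor of the triglyceride lipase ATGL at chr13:112004140-112005052 of rn6 on the minus strand, stood at 76.5 FPKM in control, 143.6 with forskolin and 0.30 with A-485 and forskolin, where about 1 read remained against about 406. Its ratio of A-485 to forskolin level was 0.0021, with a 95% interval of 4.5e-05 to 0.010 that covers counting error only. Follistatin (Fst), a secreted antagonist of activin, was listed at 0 in control, reached 142.5 FPKM with forskolin and stood at 1.95 with A-485 and forskolin. Neither gene came near its forskolin level. Rxfp3, the receptor for relaxin-3, went from 0.73 FPKM in control to 84.8 with forskolin and 0.80 with the inhibitor added, its control level. The homeobox gene Barhl1 was 24.9, 80.9 and 1.15 FPKM in the same order, and Cxcr7, an atypical chemokine receptor, was 2.48, 43.7 and 0.48 FPKM. The small GTPase gene Diras2 was 29.8, 613.7 and 22.6 FPKM, and the secreted glycoprotein gene Stc1 was 23.8, 194.8 and 8.23 FPKM. With JQ1 and forskolin the same genes stood higher than with A-485 in each case, at 2.58 FPKM for G0s2, 5.01 for Fst, 1.53 for Rxfp3, 4.13 for Barhl1, 194.1 for Diras2 and 39.8 for Stc1. The genes were picked for their lowest ratios with A-485, which by itself favours a higher value in any other library. The doses differ too, so these are side-by-side values and not a comparison of the compounds. Mir25, a very short transcript, was listed at 1829.9 FPKM with forskolin and at 0 in the other 3 libraries, and no fold is given for it.

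Among the genes lost with A-485, some had been raised by forskolin and others had not. The level with A-485 and forskolin was at least 2-fold below untreated control for 331 of the 662 lost genes (50%) and within 1.5-fold of control for 167 (25.2%). Only 28 (4.23%) were still at least 2-fold above control. Of the lost genes 240 were at least 2-fold above control with forskolin, and with A-485 121 of these were within 1.5-fold of control and 39 at least 2-fold below it. Another 281 lost genes were within 1.5-fold of control with forskolin, and 212 of these were at least 2-fold below control with A-485. For background, over all 6838 genes forskolin was at least 2-fold above control for 406 (5.94%) and below for 112 (1.64%), and A-485 with forskolin was at least 2-fold below control for 469 (6.86%) and above for 332 (4.86%). These counts share the forskolin or the control library, so a high or low value in that library enters more than 1 of them.

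Forskolin-induced transcripts were mostly lost. In the replicated INS-1 libraries limma called 318 of 10344 tested genes higher with forskolin (3.07%) and 128 lower (1.24%) at an adjusted p under 0.05. Of the higher genes, 109 (1.05% of those tested) had a log2 change of at least 1 and are called induced here. Of the induced genes 105 reached 10 FPKM in the A-485 comparison, and all 105 were at least 2-fold above control in the inhibitor experiment. If replicate 1 holds the same libraries, the choice of genes favours this, so it is not separate evidence. With A-485, 81 of the 105 (77.1%) were lost, 11 lay between lost and kept, 10 were kept, 1 lay between kept and raised and 2 were raised. The median log2 ratio of the 105 was -1.93, with quartiles of -2.75 and -1.16, against -0.03 for all genes. Their median over control was 2.90 with forskolin and 0.83 with A-485 and forskolin, on the log2 scale. With the replicate 2 pair alone and a size rule, 78 genes at the floor were induced, 59 of them lost, 7 kept and 2 raised, with a median log2 ratio of -1.95.

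Genes with other forskolin responses are given for contrast, and the differences between these groups were not tested. Among 156 genes that limma called higher by a log2 change under 1, 95 (60.9%) were lost and 31 kept, with a median log2 ratio of -1.30. Among the 6190 tested genes at the floor that limma called in neither direction, 433 (7.0%) were lost and 4474 (72.3%) kept, with a median of -0.01. Genes that limma called lower with forskolin went both ways. Of 41 at the floor 13 were lost, 17 kept and 6 raised, and their median log2 ratio was 0.20. The floor takes the higher of the forskolin and A-485 levels, so a lowered gene can enter through A-485 alone. Every raised gene here except Txnip was under 10 FPKM with forskolin and entered that way. The median of the lowered genes was 0.13 with a floor of 1 FPKM and -1.08 with a floor of 30, so its sign depends on the floor. That group is not stable: the median was -0.70 without control replicate 2 and -0.20 without forskolin replicate 1, and 3 genes were lost without control replicate 1, 4 without forskolin replicate 1 and 7 without control replicate 2. Without forskolin replicate 1, 2 were raised. The replicate 2 pair alone gave 2 lowered genes in all, 0 of them lost and 1 raised. Neurod1, a beta cell differentiation factor, was in the lost group at 137.4, 44.5 and 4.63 FPKM in control, forskolin and A-485 with forskolin. Txnip, an inhibitor of thioredoxin that glucose induces, was in the raised group at 160.1, 12.9 and 58.5 FPKM.

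**Figure D2:**
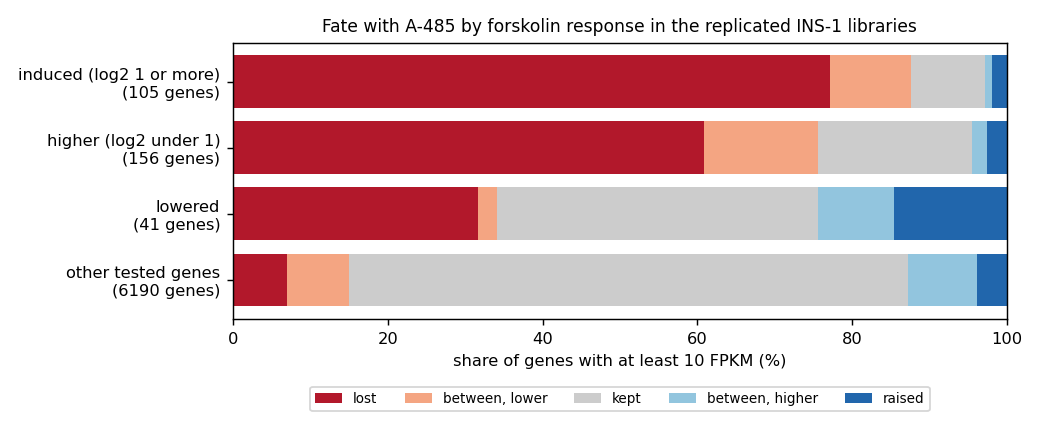
Bars show the share of genes with at least 10 FPKM in each A-485 class (x axis, percent), for 105 genes induced by forskolin in the replicated libraries, 156 with a smaller increase, 41 lowered and 6190 other tested genes. The lost share is 77.1% in the first bar, 60.9% in the second, 31.7% in the third and 7.0% in the last.

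The share of the forskolin increase that remained with A-485 was computed for each induced gene as the FPKM gained over control with both compounds, in percent of the FPKM gained with forskolin alone. Its median over the 105 genes was 11.8%, with quartiles of 1.07% and 31.4%, and 12.4% for the genes induced in the replicate 2 pair. For 21 genes the level with A-485 was at or under control, so that none of the increase remained. Another 66 kept under 50% of it, 15 kept 50% to 100%, and 3 exceeded 100%.

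**Figure D3:**
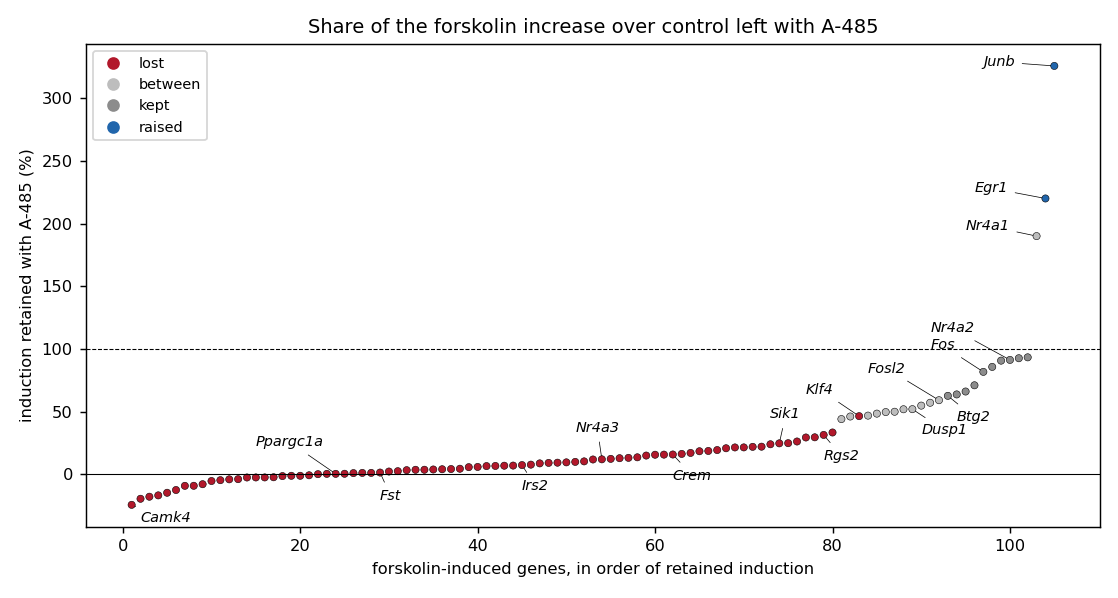
Each point is 1 of 105 forskolin-induced genes, in rising order of the share of the forskolin increase over control that was left with A-485 (y axis, percent), coloured by class. Most points lie under 50%, a short shoulder that includes Fos and Nr4a2 lies just under 100%, and Nr4a1, Egr1 and Junb stand at 190%, 220% and 326%.

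At the bottom of that order were genes below their control level, such as the kinase genes Camk4, at 14.6, 58.9 and 3.74 FPKM in control, forskolin and A-485 with forskolin, and Pak3, at 16.5, 87.3 and 4.62 FPKM, both named after their values were seen. Others lost nearly all of the increase. Mest, an imprinted gene of the hydrolase family, was 40.0 FPKM in control, 1191 with forskolin and 65.0 with A-485 and forskolin, so 2.18% of its increase was left. Cyclin D1 (Ccnd1) was 0.57, 33.3 and 0.70 FPKM and the VEGF receptor gene Kdr 0.20, 26.7 and 0.45 FPKM. Ppargc1a, a coactivator of mitochondrial and gluconeogenic genes and a well-known CREB target in liver, was 1.53, 37.6 and 1.64 FPKM. With the inhibitor present Mest was 1.63-fold, Kdr 2.21-fold, Ccnd1 1.23-fold and Ppargc1a 1.08-fold of control, and the Kdr and Ccnd1 levels there were under 1 FPKM. In the replicated libraries the limma log2 change with forskolin was 2.47 ± 0.18 (SE) for Mest and 1.82 ± 0.17 for Ppargc1a, with adjusted p of 1.4e-05 and 7.1e-05.

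Another set of cAMP-responsive genes lost most, but not all, of the increase. Crem, whose ICER product represses CREB-driven transcription, was 12.1 FPKM in control, 420.7 with forskolin and 76.5 with A-485 and forskolin, and 15.8% of its increase was left. Sik1, a salt-inducible kinase that restrains the CREB coactivators CRTC, was 4.67, 244.5 and 63.8 FPKM, with 24.7% left. Nr4a3, an orphan nuclear receptor, was 1.15, 113.6 and 14.5 FPKM, with 11.9% left. Their levels with A-485 stayed far above control, by 6.32-fold for Crem, 13.7-fold for Sik1 and 12.7-fold for Nr4a3. Per1, a clock repressor with a cAMP-driven promoter, was 13.7, 110.8 and 34.98 FPKM. With JQ1 and forskolin these 4 stood at 336.5, 183.0, 61.4 and 95.4 FPKM.

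The immediate-early genes Fos, Nr4a2, Nr4a1, Egr1 and Junb were among the exceptions. Fos, a subunit of AP-1, was 0.98 FPKM in control, 62.5 with forskolin and 51.3 with A-485 and forskolin. Nr4a2 was 2.41, 47.3 and 43.4 FPKM. Both were kept, with 81.7% and 91.3% of the increase left. Nr4a1, the nuclear receptor Nur77, was 14.4, 370.7 and 691.7 FPKM, a log2 ratio of 0.90 that fell short of the rule for raised. Egr1, a zinc finger factor induced by growth signals, was 3.91, 74.9 and 160.1 FPKM, and Junb, another AP-1 subunit, was 25.6, 520.4 and 1638 FPKM. Egr1 and Junb were the 2 induced genes raised by the rule, at log2 ratios of 1.09 and 1.65. The stress gene Gadd45b was likewise kept, at 9.61, 94.3 and 88.7 FPKM. The NR4A family thus split: Nr4a3 was 7.81-fold lower with A-485, Nr4a2 was at 91.7% of its forskolin level and Nr4a1 was 1.87-fold higher, and scaling a whole library does not alter that order.

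The promoter windows of 2 genes from each end of the induced list are shown because CREB acts through short cAMP response elements near the transcription start. They were taken from induced genes with a RefSeq promoter, so Fst, the lowest ratio among induced genes, is not among them. Each runs from 250 bases before to 50 bases after the RefSeq start on the GRCr8 assembly, 5′ to 3′ on the gene's own strand. Capitals mark TGACG or its reverse complement CGTCA, the shorter CREB motif, searched on both strands.
Nr4a1 promoter, chr7:134259888-134260187, plus strand: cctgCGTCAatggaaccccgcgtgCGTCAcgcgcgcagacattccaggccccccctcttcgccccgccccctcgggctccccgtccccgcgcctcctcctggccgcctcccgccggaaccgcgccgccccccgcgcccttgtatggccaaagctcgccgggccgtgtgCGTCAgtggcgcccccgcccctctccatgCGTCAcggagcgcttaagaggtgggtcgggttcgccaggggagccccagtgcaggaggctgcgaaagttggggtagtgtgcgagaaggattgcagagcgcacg
Junb promoter, chr19:40080876-40081175, plus strand: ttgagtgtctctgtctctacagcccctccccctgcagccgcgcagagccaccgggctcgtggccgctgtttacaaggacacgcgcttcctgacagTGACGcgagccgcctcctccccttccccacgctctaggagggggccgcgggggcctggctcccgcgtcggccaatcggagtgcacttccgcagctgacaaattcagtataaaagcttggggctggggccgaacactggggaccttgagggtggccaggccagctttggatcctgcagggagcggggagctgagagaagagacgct
Rxfp3 promoter, chr2:61731757-61732056, minus strand: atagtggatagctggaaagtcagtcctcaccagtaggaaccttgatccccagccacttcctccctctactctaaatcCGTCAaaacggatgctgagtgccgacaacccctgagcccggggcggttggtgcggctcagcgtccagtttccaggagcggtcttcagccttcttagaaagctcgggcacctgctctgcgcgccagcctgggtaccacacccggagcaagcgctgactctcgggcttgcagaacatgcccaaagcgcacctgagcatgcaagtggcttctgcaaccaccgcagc
Diras2 promoter, chr17:12909176-12909475, plus strand: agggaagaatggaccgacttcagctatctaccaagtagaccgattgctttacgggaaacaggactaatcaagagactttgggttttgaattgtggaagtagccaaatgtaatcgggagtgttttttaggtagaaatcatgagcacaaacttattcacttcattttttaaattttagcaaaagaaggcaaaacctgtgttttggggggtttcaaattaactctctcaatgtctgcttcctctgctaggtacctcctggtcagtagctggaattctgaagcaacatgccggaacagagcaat

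The raised or near-raised genes held matches in this window, at distances on either side of that of the lost gene Rxfp3. Nr4a1 had 4, at -246, -226, -82 and -53 bases, and Junb had 1, at -155. Egr1, not printed, had 2, at -135 and -66. Of the lost genes Rxfp3 had 1 match, at -173, and Diras2 and Kdr had 0. An ATG stands at the RefSeq start of Rxfp3 and shortly after that of Diras2, so these models may begin at the coding part. Their windows may then lie outside the promoter, and their match counts cannot be set against those of Nr4a1 and Junb. Over the classes, the short motif lay in 29 of 64 induced and lost genes with a RefSeq promoter (45.3%) and in 14 of 19 induced genes that were not lost (73.7%), a difference that was not tested. It lay in 34.0% of 509 lost, 37.98% of 3989 kept and 22.4% of 219 raised genes, in 36.7% of all 5637 genes at the floor with a promoter, and in 21.2% of all 33469 RefSeq promoters of the table. The full palindrome TGACGTCA contains the short motif on each strand. It lay in 4 of the 64 induced and lost genes (6.25%) and in 4 of the 19 induced genes that were not lost (21.1%). Over all 5637 genes at the floor with a promoter it lay in 211 (3.74%). These differences rest on few genes and were not tested. A match describes letters in this window and does not show a CREB site, and genes without one may have one elsewhere.

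Gene lists of INS-1 biology were described next by counts and medians, without tests. Some genes stand in more than 1 list. The background is 9.68% of all genes lost and 3.86% raised, with a median of -0.03.

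Beta cell transcription factors formed the list with the lowest median among those with more than 10 genes at the floor. Of 16 members at the floor 14 were lost, 1 lay between and 1 was raised, with a median log2 ratio of -2.21. Their median over control was -0.10 with forskolin alone and -2.78 with A-485 and forskolin, and 13 of the 16 were at least 2-fold below untreated control. With JQ1 and forskolin the median over forskolin was 0.32. Nkx2-2, which maintains beta cell identity, was 51.2 FPKM in control, 90.0 with forskolin, 2.90 with A-485 and forskolin and 11.8 with JQ1 and forskolin. The pioneer factor Foxa2 was 73.5, 149.6, 8.45 and 77.6 FPKM in that order, and St18 was 79.8, 219.9, 17.7 and 264.8 FPKM. Pdx1, the master regulator of pancreatic development and of insulin transcription, was 206.6, 356.2, 72.9 and 569.9 FPKM. Of the remaining members, named after their values were seen, Isl1 was 92.9, 88.4, 14.01 and 115.2 FPKM, Pax6 was 237.0, 360.9, 90.0 and 544.7 FPKM and Nkx6-1 was 51.0, 19.97, 4.68 and 30.9 FPKM. The maturity genes Hnf4a (12.7 FPKM with forskolin, 2.95 with A-485), Rfx6 (13.3 and 2.20) and Myt1 (22.3 and 1.99) were lost too. The A-485 library was the lowest of the 4 for 14 of the 16 members, while Pdx1, Pax6, Isl1 and St18 stood above their forskolin level with JQ1.

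Glucose sensing and channel genes were next. Of 14 members at the floor 10 were lost, 3 lay between and 1 was kept, with a median log2 ratio of -1.19. Kcnj11, the pore subunit of the ATP-sensitive potassium channel, was 125.3 FPKM in control, 99.6 with forskolin, 4.15 with A-485 and forskolin and 20.1 with JQ1 and forskolin. Its partner subunit Abcc8 moved less, at 125.1, 150.8, 69.7 and 138.7 FPKM. The fatty acid receptor gene Ffar1 was 112.2, 39.2, 3.20 and 15.7 FPKM, and the prolactin receptor gene Prlr was 15.7, 20.8, 2.95 and 2.02 FPKM. Slc2a2, the GLUT2 transporter, was 417.5, 545.5, 101.4 and 280.6 FPKM. The incretin receptor gene Glp1r was 32.6 FPKM with forskolin and 14.95 with A-485, and Gipr was 35.5 and 17.9. Slc2a1, the ubiquitous GLUT1 transporter, was kept at 44.1 and 56.6 FPKM.

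Hormone genes and secretory proteins were lower by smaller factors. Of 14 members at the floor 5 were lost, 5 lay between and 4 were kept, with a median of -0.88. Ins1 was at 58.7% of its forskolin level with A-485 and Ins2 at 72.1% (3314 and 2389 FPKM). The rat Ins1 and Ins2 transcripts are close copies, so the way reads were divided between them is uncertain. Proglucagon (Gcg) was lost from 271.7 to 67.0 FPKM, near its control level of 75.4. The islet amyloid gene Iapp went from 4069 to 2181 FPKM and chromogranin A (Chga) from 6239 to 4215. The granule protein gene Vgf, a cAMP-responsive gene, was kept at 1154 and 1523 FPKM and stood at 6349 FPKM with JQ1. In the exocytosis list 8 of 17 were lost and 6 kept, with a median of -0.95. Syt7, a calcium sensor of insulin granule release, was 714.0 FPKM with forskolin and 116.2 with A-485. Syt4 was 148.8 and 27.4, with 22.9 in control. Rab3a (83.9 and 65.9) and Vamp2 (118.9 and 89.7), which encode vesicle proteins, were kept.

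In the list of cAMP pathway components 12 of 22 members at the floor were lost and 8 kept, with a median of -1.05. The phosphodiesterase genes Pde3b (78.1 FPKM with forskolin, 16.9 with A-485), Pde10a (60.7 and 14.04), Pde4d (38.7 and 8.94), Pde1c (12.3 and 2.14) and Pde8a (11.3 and 4.83) were lost, whereas Pde7a was 6.71 and 10.4 and was kept. These enzymes break down cyclic nucleotides. The G protein regulators Rgs16 (325.6 and 41.1) and Rgs2 (159.3 and 50.7) were lost. Rgs2 was 0.90 FPKM in control, about 2 reads. With A-485 it was still 56.4-fold of control, a fold that so few control reads leave imprecise, with 31.4% of its increase left. Prkar1a, a regulatory subunit of protein kinase A, was just inside the lost class at 904.3 and 445.4 FPKM. The catalytic subunit gene Prkaca was 123.1 and 147.3 FPKM and the Gs alpha gene Gnas 3002 and 2021, both kept.

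The list of known cAMP and CREB targets was spread over every class. Of 30 members at the floor 28 were at least 2-fold above control with forskolin. With A-485, 15 were lost, 3 lay between, 7 were kept, 3 lay between kept and raised and 2 were raised, with a median of -0.98. Their median over control was 3.23 with forskolin and 1.95 with both compounds. Irs2, the insulin receptor substrate that CREB controls in beta cells, was 48.7, 278.0 and 65.5 FPKM in control, forskolin and A-485 with forskolin. Maff was 3.91, 68.2 and 10.5 FPKM. The phosphatase gene Dusp1 was 21.7, 156.8 and 91.9 FPKM and Fosl2 was 6.25, 646.2 and 384.5 FPKM, each between lost and kept. Among 26 immediate-early genes, some of them also in the first list, 5 were lost, 9 kept and 3 raised, with a median of -0.52. The growth regulator gene Myc was 68.9 FPKM in control, 69.4 with forskolin, 3.83 with A-485 and forskolin and 27.2 with JQ1 and forskolin.

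**Figure D4:**
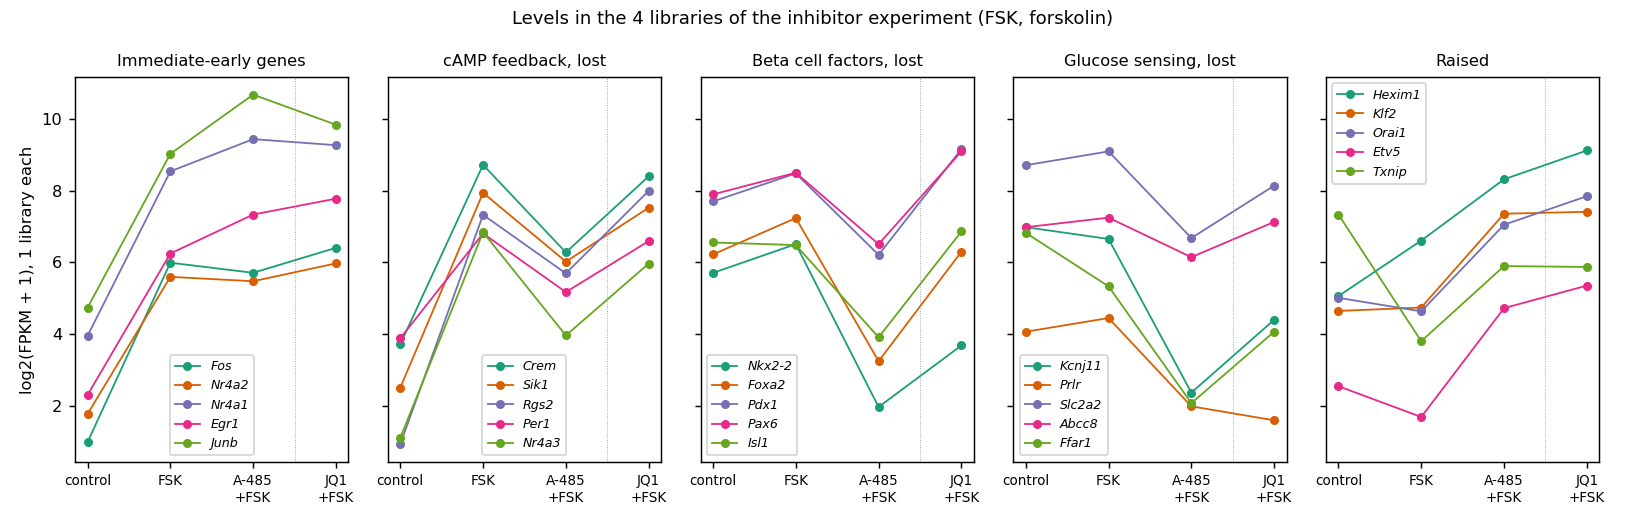
Levels of 25 named genes, log2(FPKM + 1) on the y axis, in the 4 libraries of the inhibitor experiment along the x axis (1 library each, with lines only to guide the eye), in panels by group. The genes were chosen and grouped with their values known. The immediate-early genes drawn stay up with A-485 and the cAMP feedback genes drawn drop part of the way to control. The beta cell factors and glucose sensing genes drawn drop below control, and the raised genes drawn climb in both inhibitor libraries. In the whole list of 26 immediate-early genes 5 were lost, 6 lay between lost and kept and 9 were kept. Of the rest 3 lay between kept and raised and 3 were raised, and the list median was -0.52.

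Further signalling lists contained single deep losses. Of 13 ERK feedback genes 5 were lost, with Dusp4 at 26.3, 131.1 and 10.9 FPKM in control, forskolin and A-485 with forskolin, Errfi1 at 18.1, 144.4 and 23.4 and Spry1 at 2.15, 13.7 and 1.96. In the same list Etv5 was raised, at 4.83, 2.21 and 25.4 FPKM. Of 12 clock genes 4 were lost, led by the repressor Cry2 at 24.4, 330.6 and 37.9 FPKM and followed by Per2, Dbp and Per1, while Cry1 was 6.04, 7.79 and 15.1 FPKM. Among the BMP and ID genes Id1, Id3, Id4 and Fst were lost and Bambi was raised from 14.3 to 32.0 FPKM. The hypoxia and growth factor gene Vegfa was 185.8, 602.2 and 180.7 FPKM, which placed it at its control level.

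**Figure D5:**
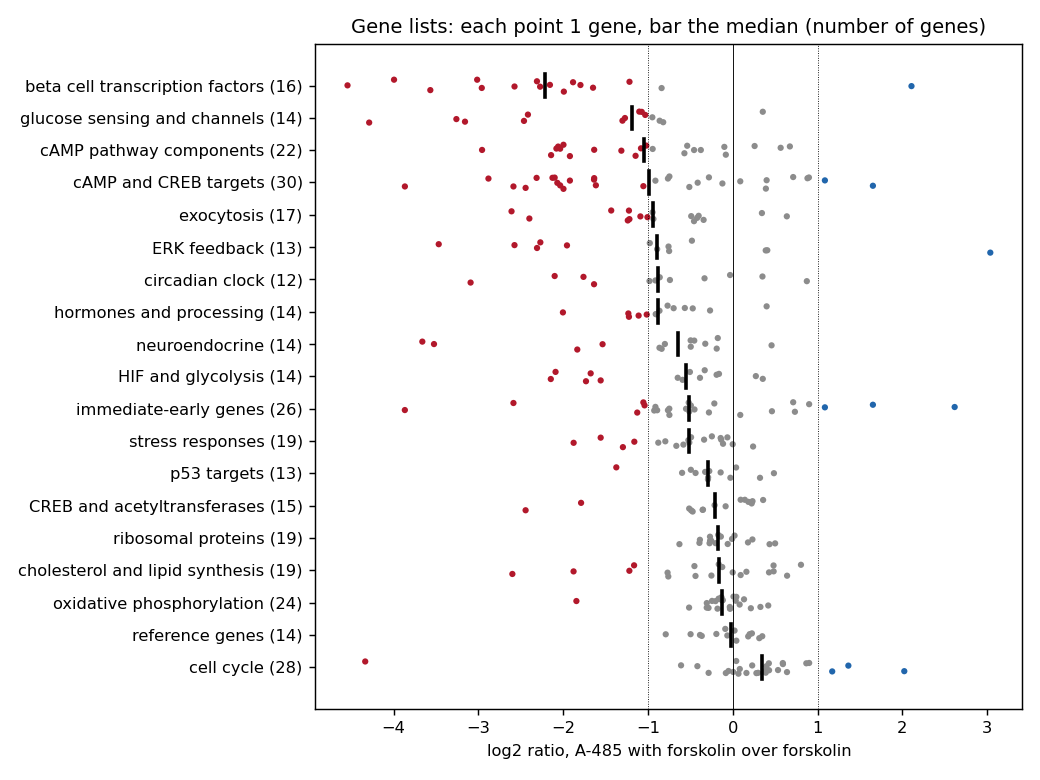
Each point is the log2 ratio of A-485 with forskolin over forskolin (x axis) of 1 gene at the floor, by gene list (y axis, number of genes in brackets), with a bar at the median and dotted lines at the limits for lost and raised. Among the lists drawn, each with more than 10 genes, beta cell transcription factors have the lowest median at -2.21, ribosomal protein, oxidative phosphorylation and reference genes lie close to 0, and cell cycle genes have a median of 0.34.

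Ribosomal protein, oxidative phosphorylation and reference genes moved little. Of 19 ribosomal protein genes at the floor 18 were kept and 0 lost, with a median of -0.17. Of 24 oxidative phosphorylation genes 23 were kept, with a median of -0.12, and of 14 reference genes 13 were kept, with a median of -0.02. Medians of this size have no fixed sign, since they turned positive with equal column totals, at 0.13, 0.17 and 0.32. Of 19 stress response genes 12 were kept and 4 lost, with a median of -0.51, beside 69.7% kept and 9.68% lost over all genes. Ddit4 was lost from 65.0 to 21.4 FPKM and Trib3 from 27.8 to 11.9. Ddit4 was 10.5 FPKM in control, so with A-485 it was still 2.03-fold of control. CREB family and acetyltransferase genes were kept in 13 of 15 cases. The 2 lost were Crem, described above, and the deacetylase gene Hdac5, at 28.2% of its forskolin level with A-485.

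Cell cycle genes had a median of 0.34, which stayed positive under each scaling tried. Of 28 at the floor 18 were kept, 5 lay between kept and raised, 3 were raised and 1 was lost. The replication licensing factor Cdc6 was 7.01, 4.80 and 22.6 FPKM in control, forskolin and A-485 with forskolin, the G1/S cyclin Ccne1 was 39.3, 20.6 and 54.6 and Ccne2 was 13.7, 17.6 and 41.1. All 3 raised members belong to entry into S phase. The mitotic genes Cdk1 (376.3 and 377.6 FPKM with forskolin and with A-485) and Top2a (139.6 and 134.8) were kept. With JQ1 and forskolin the median of the list over forskolin was -0.33. Ccnd1, the lost member, is described above.

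Raised transcripts were fewer on the deposited scale. Of the 264, 161 (61.0%) were within 1.5-fold of control with forskolin alone, against 88.6% of kept and 42.4% of lost genes. With forskolin alone 29 (10.98%) were at least 2-fold below control, against 1.64% of all genes. A low value in the forskolin library places a gene both in the raised class and below control, so this excess is not a separate result. The median level of the raised genes with forskolin was 7.47 FPKM, so most reached the floor only through A-485. With A-485, 129 (48.9%) of the raised genes stood at least 2-fold above control and 67 (25.4%) were within 1.5-fold of it. Hexim1, an inhibitor of the elongation kinase P-TEFb and a transcript known to rise when BET proteins are blocked, was 32.3 FPKM in control, 96.5 with forskolin, 317.9 with A-485 and forskolin and 555.4 with JQ1 and forskolin. Klf2, a Krüppel-like factor, was 24.0, 25.7, 162.8 and 169.0 FPKM, and Orai1, a calcium channel subunit, was 31.2, 23.8, 131.3 and 228.8 FPKM. The opioid precursor gene Penk was 0.54, 9.19, 66.95 and 42.7 FPKM and the lysosomal lipase gene Lipa 3.81, 1.94, 19.6 and 15.6 FPKM. Each of these stood above both control and forskolin in both inhibitor libraries. Txnip did not, since with A-485 it reached 36.6% of its control level. Its relative Arrdc4, another arrestin of the glucose response, was lost at 62.2, 14.9, 2.39 and 5.92 FPKM in the same order. Among the 12 highest ratios Chchd2 and Polr2l were listed at 0 in control and forskolin, and no fold is given for them. Over the same 6838 genes JQ1 with forskolin was at least 2-fold below forskolin for 451 (6.6%) and above for 501 (7.33%), counts that share the forskolin library with those for A-485.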

How the data were processed

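RNA was extracted with Trizol and purified on columns, and strand-preserving libraries were made, per the labels' protocols. The inhibitor table names no unit. Its deposited values were read as FPKM: low values multiplied by length cluster, within each library, at the worth of a single read, and this gave the estimated depth. Transcript lengths, and coordinates on rn6, came from the replicated table, for 16284 of the 17007 genes. The replicated INS-1 table holds the authors' regularised log2 values and the authors' log2 fold change with its p-value and adjusted p-value, made with HOMER on rn6, per the file headers. The submitters' processing notes also name TopHat2 2.0.9, STAR and DESeq2, with no role for each. The inhibitor table had 17032 rows, and 25 whose symbol had become a date were left out.

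Log2 ratios of deposited FPKM were computed with a pseudocount of 1, which understates changes of low genes. Genes needed 10 FPKM in the higher column. A 95% counting interval of a ratio used the estimated reads and covers counting error only. The replicated test had been planned for counts if the files held them. Since they hold log2 values, limma 3.58.1 (R 4.3.3) was used on those, with a variance trend, Benjamini-Hochberg adjustment and a group mean of at least 1. Both steps were tested on simulated data. Sequences came from RefSeq promoters of GRCr8, matched by symbol for 5637 of 6838 genes. Other tools were Python 3.11.15 with pandas 2.3.3.

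The comparison, the 28 gene lists and the rule for named genes were chosen with earlier results of these data known. The rule named the 12 lowest and 12 highest ratios, the 10 most lost and 10 best kept induced genes, up to 4 members per list by size of ratio, genes always named, genes next to a size limit and the 8 genes highest with forskolin. Other list members printed beside them were named after their values were seen. Alternatives changed the pseudocount, floor, scaling, size rule, transcript length, read minimum and the replicated fit. Some genes chosen this way are left out of the text.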

Additional observations from a re-analysis of the deposited data

How the results depend on the processing

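Of 1042 recomputed log2 ratios of named genes, 993 stayed within 1.5-fold of the reported value, 49 moved further and 0 turned direction among those past the size rule. Under each scaling 20 of 28 list medians kept their sign, and the other 8, all between -0.29 and -0.02 as reported, turned positive under at least 1. The following counts moved by over 1.5 times. The cause was not tested. With a pseudocount of 5, 142 genes were raised, 40 lower with forskolin than control, 197 higher than control with A-485, and 3 forskolin-lowered genes were raised. With upper quartile scaling 431 were raised and 173 lower with forskolin. With equal column totals, chosen after seeing the data, 678 were raised, 360 lower with forskolin, 18 induced genes kept, 10 forskolin-lowered genes raised, and 1 list median reached 0.5. A floor of 1 FPKM gave 532 raised, 385 lower with forskolin, 820 lower than control with A-485, and 22 lost and 13 raised among forskolin-lowered genes. A floor of 30 FPKM, which keeps fewer genes, gave 437 lost, 2868 kept, 80 raised, 18 lower with forskolin, 236 lower and 168 higher than control with A-485, and 4 lost and 1 raised among forskolin-lowered genes, with their median at -1.08. A 3-fold rule gave 346 lost and 84 raised. In the replicated libraries, the replicate numbers shared by control and forskolin do not by themselves establish a pairing. Replicate 1 deviations from the group means correlated between control and forskolin at 0.459 over 7584 genes. The main fit has no replicate block, so it leaves out such a shared shift, and there are only 2 pairs. A replicate block gave 691 lowered genes, 33 of them lost and 31 raised, and 82 of the induced genes lost. Without a variance trend 32 were lowered, 3 lost and 1 raised. The authors' deposited table called 270 genes induced, of which 159 were lost, 34 kept and 5 raised. Leaving out 1 library at a time gave 36 to 145 lowered genes (36 without forskolin replicate 1, 61 without control replicate 2, 65 without control replicate 1), of which 3 to 13 were lost and 2 to 6 raised, with medians of -0.70 to 0.28, and 75 to 101 induced genes lost. The replicate 2 pair alone gave 2 lowered genes, 0 lost and 1 raised, with a median of 2.10. At the depths given, a level under 1 FPKM rests on a handful of reads.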

Other observations

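Some lists not described above also held deep losses beside kept members. In the neuroendocrine list 4 of 14 genes at the floor were lost and 7 kept. The neuronal differentiation factor gene Neurod2 was 49.0 FPKM in control, 129.7 with forskolin and 10.4 with A-485 and forskolin. The RNA-binding protein gene Celf3 was 111.2, 119.5 and 32.8 FPKM. Both were lower with A-485 than in control. The neuronal tubulin gene Tubb3, named after its values were seen, was 78.3, 74.0 and 102.0 FPKM and was kept.

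In the cholesterol and lipid list 4 of 19 were lost and 11 kept, and its median of -0.17 turned positive with equal column totals. The desaturase gene Scd was 429.8, 384.0 and 62.5 FPKM in the same order. Insig1, which retains the SREBP complex in the endoplasmic reticulum, was 27.0, 129.4 and 57.2 FPKM. The fatty acid synthase gene Fasn (95.9 FPKM with forskolin, 102.3 with A-485), named after its values were seen, was kept. Among mRNA decay genes Btg1 was 84.9, 616.1 and 195.2 FPKM and Cpeb4 was 25.8, 137.6 and 40.1 FPKM, both lost. The core deadenylase scaffold gene Cnot1, named after its values were seen, was 46.3, 46.3 and 48.4 FPKM and was kept.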
